A study of Mus musculus with 22 samples.

Results

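The account compares wild-type (WT) cells of a mouse tumor with wild-type bone marrow cells grown in normoxia. Its members are 7 of the 22 RNA-seq libraries of the series, 3 tumor libraries and 4 culture libraries, chosen by their titles, and the 20770 Ensembl genes listed in both deposited count tables. The tumor libraries were labelled as WT tumor tissue of the MC38 model at day 7. MC38 is a mouse colon carcinoma line that grows in C57BL/6 hosts. The culture libraries were labelled as WT bone marrow myeloid cells at day 4, grown with GM-CSF and IL-6 and purified before RNA was taken. All 7 share the WT genotype, the strain background C57BL/6N and the same Takara SMART-Seq library kit. The other libraries of the series are WT hypoxia cultures and tumors or cultures of the knockout (KO) genotype, which lacks VISTA, an immune checkpoint protein whose gene is Vsir. Source, day, cytokine exposure and deposited table all differ together between the tumor and culture libraries, so their parts in any difference cannot be told apart. Purification of cells from the tumors is not mentioned in the labels, although the name of the tumor table speaks of MDSC (myeloid-derived suppressor cells). They state independent biological replicates for the cultures and make no such statement for the tumors, where p-values then measure only the spread between these libraries.

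Myeloid-derived suppressor cells are immature neutrophil-like and monocyte-like cells that restrain T cells, in part by using up arginine and by making nitric oxide. In a culture with GM-CSF and IL-6, marrow progenitors divide and pass through the stages at which neutrophils fill their granules, first with proteases such as myeloperoxidase and elastase and later with lactoferrin and cathelicidin-type proteins. In tumors, blood monocytes enter the tissue and mature towards macrophages, which take up debris, present antigen and respond to interferon and to low oxygen. A few gene groups therefore separate these states in textbook terms, and the data are given by such groups.

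The tumor libraries held 27452024 to 31716200 counts and the culture libraries 23486727 to 23667396, of which the genes listed in both tables took 99.8% to 99.9%. Levels are given as CPM, counts scaled to a common library size after TMM normalization, and a fold change is the log2 ratio of tumor WT over normoxia WT with its standard error (SE). Of 14666 genes tested with edgeR, 5805 (39.6%) were higher and 5982 (40.8%) lower in the tumor libraries at an adjusted p under 0.05. With 80.4% of all genes called, that rule separates little, so counts below use a stricter one. A gene is said to have risen or fallen past 2-fold where edgeR's test against a 2-fold change gave an adjusted p under 0.05, which 2710 genes (18.5%) did upward and 3349 (22.8%) downward, 41.3% in all. These shares are the background of every list count below. Scaling by library size alone gave 2299 upward and 3854 downward. The 2 groups did not overlap for 79.0% of tested genes, so absence of overlap marks no gene as particular. The first principal component held 94.82% of the variance and separated tumor from culture, and the biological coefficient of variation was 0.114 within the tumor libraries and 0.116 within the cultures. Bulk RNA does not tell fewer cells of a type from less RNA per cell, and this holds for each result below.

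Neutrophil granule genes were mostly far lower in the tumor libraries than in the cultures. Of the early granule genes, 0 of the 10 tested members rose and 10 fell past 2-fold, and the median log2 fold change was -6.86, against -0.02 over all genes tested. Of the late granule genes, 1 of the 19 tested members rose and 14 fell past 2-fold, with a median of -4.42. The median log2 fold changes of these and most other groups are set out in the plot of fold changes by list.

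**Figure D1:**
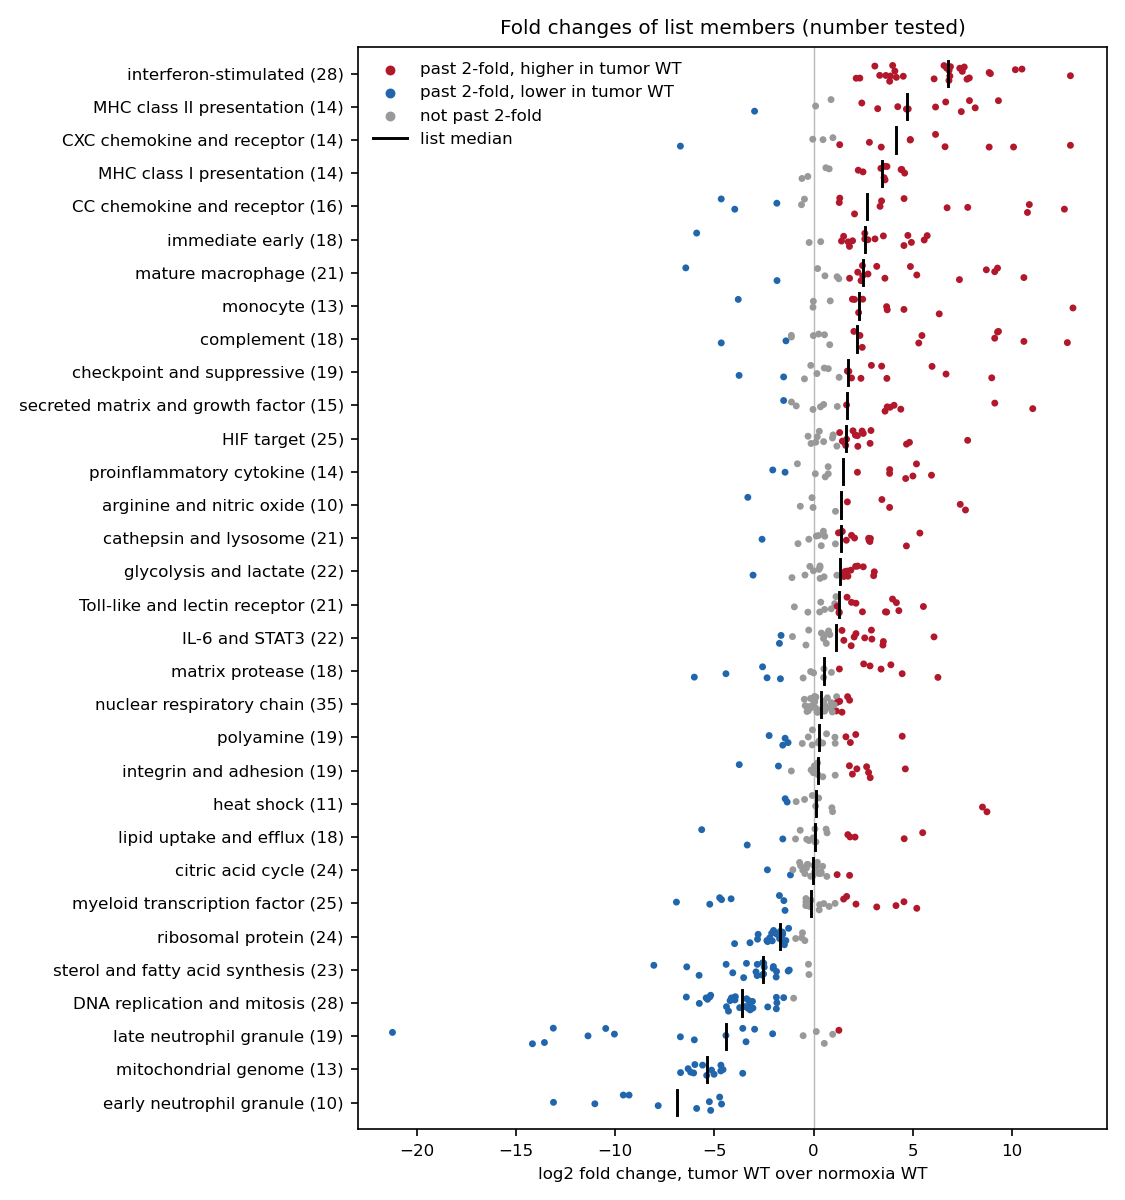
Each point is 1 tested gene, placed by its log2 fold change of tumor WT over normoxia WT (horizontal axis), and each row is a gene list with the number of tested members in parentheses. Red points rose past 2-fold, blue points fell past 2-fold, and grey points did neither. Black bars are medians of the lists drawn, which run from 6.76 for interferon-stimulated genes to -6.86 for early neutrophil granule genes. Not drawn are the dendritic cell, mast cell and basophil, eosinophil and library check lists. The lists of other cell types, among them the erythroid list with a median of 8.65, are not drawn either. The leftmost point is Ngp, which had no tumor count, so its fitted position is not a measured size.

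Ngp encodes neutrophilic granule protein and was the second most counted gene of the cultures after the mitochondrial gene mt-Co1. It had 0, 0 and 0 CPM in the tumor libraries, against 9199, 12514, 12929 and 12211 CPM in the cultures. With 0 counts over the 3 tumor libraries and 1175879 over the cultures, the level was at least 316000-fold lower in the tumor libraries, taking 3 counts over the group as the floor. S100a8 and S100a9 encode the subunits of calprotectin, which neutrophils carry in their cytosol. S100a9 had 1.02, 1.2 and 0.0782 CPM in the tumor libraries, against 7687, 9676, 10902 and 9817 CPM in the cultures, and fell, with a log2 fold change of -13.56 ± 0.46 SE (edgeR adjusted p = 5.86e-10). S100a8 had 3.07, 1.7 and 2.66 CPM in the tumor libraries, against 5768, 6531, 6810.2 and 7007 CPM in the cultures (log2 fold change -11.37 ± 0.22 SE). The groups did not overlap for either gene, and the tumor libraries held a few CPM at most.

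The early proteases showed the same separation. Mpo, myeloperoxidase, had 0.0731, 0.0353 and 0.0391 CPM in the tumor libraries, against 415, 422, 617 and 450.0 CPM in the cultures, and Elane, neutrophil elastase, had 0.878, 0.848 and 0.235 CPM in the tumor libraries, against 460.2, 496, 643 and 456 CPM in the cultures. Their log2 fold changes were -13.10 ± 0.29 SE and -9.59 ± 0.28 SE. Prtn3, proteinase 3, and Serpinb1a, which inhibits these proteases, fell less, with log2 fold changes of -5.89 and -5.19. Cebpe and Gfi1, transcription factors needed for granulocyte maturation, fell with them (log2 fold change -4.73 and -4.64).

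Ly6g, the surface marker used to gate neutrophils in mice, had 0, 0.177 and 0 CPM in the tumor libraries and 55.2, 52.9, 93.8 and 76.5 CPM in the cultures (log2 fold change -10.04 ± 0.49 SE). The tumor value rests on counts in only 1 of the 3 libraries. Some members of the late granule list did not follow its other genes in WT. Lyz2, lysozyme, which monocytes and macrophages also make, had 12962 ± 2671 CPM in the tumor libraries and 6656 ± 1323 CPM in the cultures (SD), and was called higher without passing the 2-fold test (log2 fold change 0.96). Csf3r, the G-CSF receptor, and Chil1 stood at log2 fold changes of 0.54 and 0.13, the first called higher and the second not called (edgeR adjusted p = 0.297). The call of Csf3r was lost under scaling by library size alone (0.32, edgeR adjusted p = 0.0724). In the KO tumor over KO culture contrast, Csf3r and Chil1 stood at -0.15 and -8.34. Ltb4r1, a leukotriene B4 receptor, was the one member past 2-fold upward (1.27), a call lost without tumor library 1 or 2 or culture library 1 or 2 (edgeR adjusted p = 0.0631, 0.115, 0.0733 and 0.0734 for the 2-fold test). That call was also lost with DESeq2 (adjusted p = 0.153) and, in edgeR, under library size alone, without a filter on low counts and with protein-coding genes only (adjusted p = 0.306, 0.0596 and 0.0598). The summed level of the late granule list ran over 11858 to 17115 CPM in the tumor libraries and 42411 to 54924 CPM in the cultures, and most of the tumor sum was Lyz2.

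The remaining genes among the 12 largest falls included further granule protein genes and genes of other kinds. Ltf, lactoferrin, had 0.562 ± 0.259 CPM in tumor and 4962 ± 939 CPM in cultures (SD, n = 3 and 4), and Lcn2, the siderophore-binding lipocalin, had 3.53 ± 0.178 CPM in tumor and 5021 ± 654 CPM in cultures. Ctsg, cathepsin G, Ms4a3, a marker of granulocyte and monocyte progenitors, and Wfdc21 had log2 fold changes of -9.30, -11.02 and -10.22. Abca13, a large lipid transporter, and Klk1b11, a kallikrein, fell, with log2 fold changes of -10.90 and -11.47. Klk1b11 belongs to a family of near-identical kallikrein genes, so its share of reads is uncertain.

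**Figure D2:**
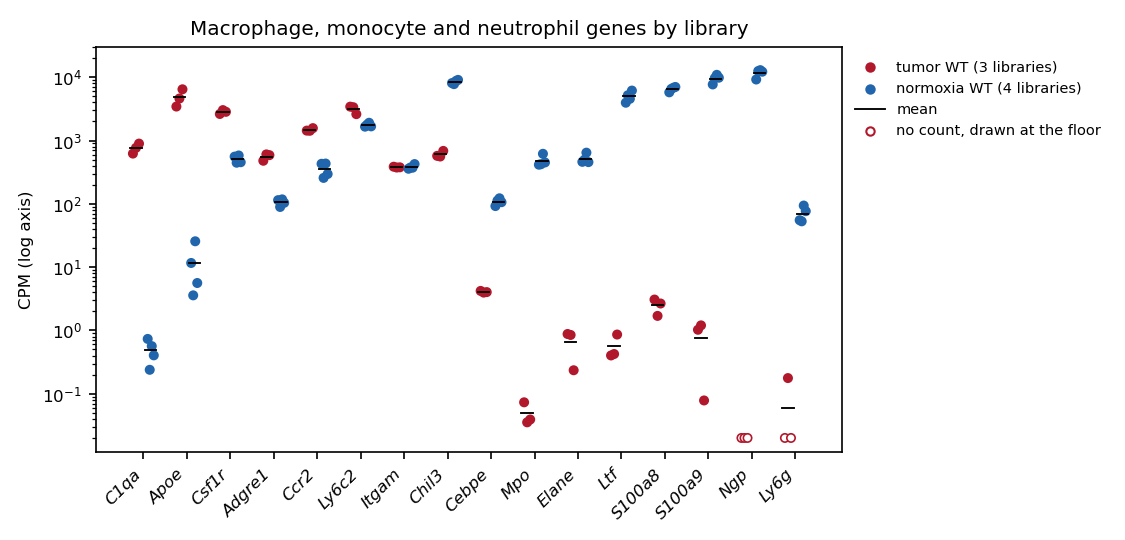
CPM of macrophage, monocyte and neutrophil genes in each library on a log axis, with tumor WT (red, 3 libraries) left of normoxia WT (blue, 4 libraries) and black lines at the means. Open circles mark libraries with no count, drawn at the floor of the axis, and Itgam lies at the same height in both groups while C1qa is at 0.485 CPM and Ngp at 11713 CPM on average in the cultures.

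Genes of monocytes and macrophages were mostly higher in the tumor libraries. Of the mature macrophage genes, 15 of the 21 tested members rose and 2 fell past 2-fold, with a median log2 fold change of 2.47. Of the monocyte genes, 9 of the 13 tested members rose and 1 fell past 2-fold, with a median of 2.27. Summed levels of the macrophage list ran over 14064 to 19192 CPM in the tumor libraries and 1290.0 to 1768 CPM in the cultures.

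C1qa, a chain of the complement recognition protein C1q that resident macrophages make, had 621, 765 and 894 CPM in the tumor libraries, against 0.734, 0.239, 0.565 and 0.404 CPM in the cultures (log2 fold change 10.59 ± 0.22 SE, edgeR adjusted p = 9.59e-14). C1qa lies at chr4:136895917-136898803 (GRCm38), and the partner chains C1qb and C1qc had log2 fold changes of 9.12 and 9.27. Apoe, apolipoprotein E, had 3439, 4607 and 6440.2 CPM in the tumor libraries and 11.6, 3.58, 25.6 and 5.61 CPM in the cultures (log2 fold change 8.70 ± 0.81 SE). The groups did not overlap for either gene, and the cultures spread more widely for Apoe than the tumor libraries did.

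Csf1r, the M-CSF receptor, had 2625, 3022 and 2838 CPM in the tumor libraries and 556, 446, 580.2 and 454 CPM in the cultures (log2 fold change 2.47 ± 0.11 SE), and Adgre1, which encodes the macrophage antigen F4/80, had 479, 603 and 587 CPM in the tumor libraries and 114, 89.2, 118 and 104 CPM in the cultures (2.39 ± 0.11 SE). The groups did not overlap for either gene, and the cultures held clear levels of both. Cx3cr1, the fractalkine receptor, rose by 7.35, and Fcgr4, an activating Fc receptor, by 3.59.

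The macrophage list had exceptions. Gpnmb, a glycoprotein of lipid-laden macrophages, fell (79.9 CPM in tumor and 287 CPM in cultures, log2 fold change -1.84). Marco, a scavenger receptor, had 1 count over the tumor libraries and 149 over the cultures, which made the culture level higher by a factor of 120 (95% counting interval 21.3 to 4780).

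Ly6c2, the surface marker used to gate inflammatory monocytes, had 3426, 3356 and 2609 CPM in the tumor libraries, against 1654, 1776, 1906 and 1672 CPM in the cultures, and was called higher without passing the 2-fold test (log2 fold change 0.84 ± 0.11 SE). Ccr2, the chemokine receptor by which monocytes leave the marrow, had 1475 ± 80.6 CPM in tumor and 353 ± 90.6 CPM in cultures (SD, n = 3 and 4) and rose past 2-fold (2.06). Fn1, fibronectin, rose by 3.71 ± 0.20 SE. Chil3, a chitinase-like protein of myeloid cells also called Ym1, went the other way, with 605 ± 69.2 CPM in tumor and 8412 ± 593 CPM in cultures (-3.80). Itgam, the integrin chain CD11b that defines the myeloid gate, had 385, 374 and 377 CPM in the tumor libraries and 358, 375, 372 and 424 CPM in the cultures and was not called (log2 fold change -0.01 ± 0.09 SE).

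Members of the Ms4a family, a cluster of membrane protein genes on chromosome 19, stood on both ends of the comparison. Ms4a4a (chr19:11375523-11392790), Ms4a4c (chr19:11404770-11427246) and Ms4a6b (chr19:11516512-11531256) were among the 12 largest rises, with log2 fold changes of 11.78, 13.07 and 10.87. Ms4a3 (chr19:11629496-11640851), in the same cluster, was among the 12 largest falls. Ms4a4c had 1235 ± 134 CPM in tumor and 0.14 ± 0.134 CPM in cultures (SD). Cd72, an inhibitory receptor of myeloid and B cells, was also among the largest rises, with 194 ± 23.8 CPM in tumor and 0.0795 ± 0.033 CPM in cultures (11.17).

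The myeloid transcription factors divided. Of these, 7 of the 25 tested members rose and 8 fell past 2-fold, against 18.5% and 22.8% of all genes. The median was -0.13. Irf8, which drives monocyte and dendritic cell fates, rose by 4.15 ± 0.13 SE, with 699 ± 45.8 CPM in tumor and 39.4 ± 7.02 CPM in cultures (SD). Cebpb, the C/EBP factor of emergency granulopoiesis and macrophages, rose by 2.13. Spi1, which encodes PU.1, was called higher by 0.30, and lost that call (0.08) under scaling by library size alone. Cebpa, Myb and Irf4 fell, with log2 fold changes of -1.50, -6.91 and -5.23. Myb marks progenitors and Irf4 is induced by GM-CSF in marrow cultures.

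The tumor label was set against markers of the cells a tumor holds. Ptprc, which encodes the pan-leukocyte antigen CD45, had 1097 ± 31.8 CPM in tumor and 464 ± 31.1 CPM in cultures. Of the 16 carcinoma and epithelial markers, the defining ones were near 0 in the tumor libraries: Epcam averaged 0.385 CPM, Krt8 0.348, Krt18 0.197 and Krt19 0.228. Summed, that list ran over 21.9 to 43.3 CPM in the tumor libraries and 135 to 166 CPM in the cultures, most of it Cdh1 (28.6 CPM in tumor and 82.5 CPM in cultures) and, in the cultures, the progenitor antigen gene Prom1 (0.0471 CPM in tumor and 62 CPM in cultures). The libraries labelled as tumor tissue thus had myeloid genes at high levels and keratin genes at or near 0.

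Markers of other cell types were present at different levels. Of the T and NK cell list, 11 of 14 tested members rose and 1 fell past 2-fold, against 18.5% and 22.8% of all genes. Of its 22 members, 7 were listed in the tumor table only. Trac, the T cell receptor alpha constant gene, had 8.73 CPM in tumor and 0.06 CPM in cultures, and Gzmb, granzyme B, had 27.5 CPM in tumor and was not listed in the culture table. The lowest sum of a listed gene over the 8 culture columns was 2 counts, and a gene not listed there enters summed levels as 0. The summed level of that list ran the other way, over 70.6 to 141 CPM in the tumor libraries and 288 to 395 CPM in the cultures, because Thy1, a surface glycoprotein of T cells and stem cells, had 0.501 CPM in tumor and 309 CPM in cultures. Col3a1 and Dcn, a collagen and a proteoglycan of fibroblasts, had 362 ± 31.2 and 53.6 ± 2.8 CPM in tumor (SD, n = 3) and were not listed in the culture table. The whole fibroblast list, Thy1 included, summed over 448 to 539 CPM in the tumor libraries and 322 to 424 CPM in the cultures. Of its 6 tested members, 2 rose and 3 fell past 2-fold, against 18.5% and 22.8% of all genes. Besides Thy1, Acta2 (2.31 CPM in tumor and 13.6 CPM in cultures, -2.55) and Mmp2 (5.74 and 34.1 CPM, -2.57) fell. Pdgfra and Col1a1 rose (7.21 and 1.48). The 2-fold call of Col1a1 was lost under several settings, DESeq2 among them (adjusted p = 0.0976).

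The globin genes Hba-a1, Hba-a2, Hbb-bs and Hbb-bt, of red cells, averaged 35.6, 32.4, 25.8 and 13.2 CPM in the tumor libraries, and their list summed over 84.4 to 136 CPM in the tumor libraries and 0.199 to 0.968 CPM in the cultures. In the endothelial list, 3 of the 6 tested members rose and 2 fell past 2-fold, against 18.5% and 22.8% of all genes. Flt1, the VEGF receptor that monocytes also carry, had 117 CPM in tumor and 1.04 CPM in cultures, while Cdh5 had 1.27 CPM in tumor and 0.0497 CPM in cultures, and Cldn5, at 0.0509 CPM in tumor, was not listed in the culture table. The 2 endothelial members that fell were Vwf (1.13 CPM in tumor and 23.3 CPM in cultures, -4.39) and Egfl7 (0.185 and 3.56 CPM, -4.23). The list summed over 156 to 218 CPM in the tumor libraries and 75.5 to 92.4 CPM in the cultures. Most of the tumor sum was Flt1 and Pecam1, and Pecam1 was not called (51.6 CPM in tumor and 56.4 CPM in cultures). Of the platelet list, Pf4 rose (97.4 CPM in tumor and 1.38 CPM in cultures) and Tubb1 had 2 counts in tumor and 92 in cultures, with sums over 74 to 149 CPM in the tumor libraries and 4.79 to 8.03 CPM in the cultures. Their part in the results was not tested.

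Markers of further marrow lineages were counted too, beside the 18.5% of all genes that rose and the 22.8% that fell past 2-fold. Summed levels of the eosinophil list and of the mast cell and basophil list were higher in every culture than in any tumor library. Of the eosinophil list, 2 of the 6 tested members rose and 4 fell past 2-fold, with sums over 7.28 to 20 CPM in the tumor libraries and 96.3 to 123 CPM in the cultures. Of the mast cell and basophil list, 0 of the 7 tested members rose and 4 fell past 2-fold, with sums over 16 to 29.2 CPM in the tumor libraries and 43.7 to 62.7 CPM in the cultures. Ear2, an eosinophil ribonuclease, had 2.46 CPM in tumor and 41.5 CPM in cultures, Siglecf had 1.12 CPM in tumor and 14.2 CPM in cultures, and Kit, the stem cell factor receptor gene, had 1.07 CPM in tumor and 22.3 CPM in cultures. The eosinophil members that rose were Ccr3 (1.68 CPM in tumor and 0.0794 CPM in cultures, 4.31) and Alox15 (6.1 and 0.834 CPM, 2.86). For dendritic cells, 6 of the 14 tested members rose and 2 fell past 2-fold, with sums over 56.4 to 71.9 CPM in the tumor libraries and 52.2 to 107 CPM in the cultures. Flt3 and Cd209a rose (4.94 and 6.33), and the chemokine genes Ccl22 and Ccl17 fell (-4.65 and -3.97). For B and plasma cells, 2 of the 5 tested members rose and 1 fell past 2-fold, with sums over 57.5 to 65.5 CPM in the tumor libraries and 33.9 to 46.3 CPM in the cultures.

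Interferon-stimulated genes rose together. Past 2-fold, 28 of the 28 list members rose and 0 fell, against 18.5% of all genes upward, with a median log2 fold change of 6.76. Their summed level ran over 13026 to 16657 CPM in the tumor libraries and 406 to 475 CPM in the cultures. Interferons signal through a complex that holds STAT2 and IRF9 and binds the interferon-stimulated response element (ISRE), a DNA sequence with a doubled GAAA core. The genes for these proteins rose by log2 fold changes of 3.64 (Stat2) and 2.14 (Irf9).

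Promoter windows of 300 bases, from 250 before to 50 after the start, were read from RefSeq on GRCm38.p6. Of 28 list members, 23 matched, and 14 of these (60.87%) held the pattern of GAAA, any 2 bases and GAAA on either strand. Genes were counted where any of their windows held a match, and 4.08% of tested genes with a window did. Counted by single windows, the share was 3.44% of all 32851 promoters. The windows of 3 of the 14 members are shown, chosen among the most abundant members with a match. Capitals mark the matches, and each sequence reads 5′ to 3′ on the strand of its gene. Gbp2 lies at chr3:142620413-142620712, plus strand, Ifit3 at chr19:34583279-34583578, plus strand and Cxcl10 at chr5:92348840-92349139, minus strand.
Gbp2: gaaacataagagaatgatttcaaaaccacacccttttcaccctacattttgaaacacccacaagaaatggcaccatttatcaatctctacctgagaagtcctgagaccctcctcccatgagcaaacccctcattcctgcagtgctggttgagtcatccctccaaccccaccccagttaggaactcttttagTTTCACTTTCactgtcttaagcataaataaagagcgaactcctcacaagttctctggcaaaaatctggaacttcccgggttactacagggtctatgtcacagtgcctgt
Ifit3: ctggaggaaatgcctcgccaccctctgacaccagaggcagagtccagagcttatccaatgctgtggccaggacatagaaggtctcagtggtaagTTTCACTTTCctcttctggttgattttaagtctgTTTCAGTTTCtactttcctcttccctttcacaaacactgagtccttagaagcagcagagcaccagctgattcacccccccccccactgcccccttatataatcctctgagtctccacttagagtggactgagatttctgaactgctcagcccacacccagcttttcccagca
Cxcl10: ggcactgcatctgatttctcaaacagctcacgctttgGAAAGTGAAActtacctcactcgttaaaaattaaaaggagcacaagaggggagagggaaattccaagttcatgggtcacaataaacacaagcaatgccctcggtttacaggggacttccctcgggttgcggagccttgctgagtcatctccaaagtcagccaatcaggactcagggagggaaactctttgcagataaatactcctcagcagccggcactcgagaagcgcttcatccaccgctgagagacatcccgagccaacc
The matches began 59 bases before the start in Gbp2, 156 and 122 before it in Ifit3, and 213 before it in Cxcl10. Each is a match of letters only, and a window without one says nothing of other sites.

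Gbp2, an interferon-induced GTPase, had 1661, 1684 and 1738 CPM in the tumor libraries, against 8.65, 5.61, 10.9 and 6.86 CPM in the cultures (log2 fold change 7.73 ± 0.19 SE, edgeR adjusted p = 1.25e-12). Ifit3, an RNA-binding antiviral protein, had 1072, 1174 and 679 CPM in the tumor libraries and 0.888, 0.835, 0.847 and 0.807 CPM in the cultures (10.16 ± 0.23 SE). Cxcl10, a chemokine that draws T cells, had 841, 822 and 756 CPM in the tumor libraries and 1.39, 2.55, 1.53 and 1.53 CPM in the cultures (8.84 ± 0.16 SE). In each case the lowest tumor library stood far above the highest culture library, while the tumor libraries differed among themselves by less than 2-fold. Irf7, which amplifies the interferon response, had 2069, 2315 and 1686 CPM in the tumor libraries and 14.1, 15.4, 23 and 19 CPM in the cultures (6.82 ± 0.19 SE), and Ifit2 rose by 6.57.

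Further interferon-inducible genes were among the 12 largest rises. Iigp1, an immunity-related GTPase, had 595, 602 and 505 CPM in the tumor libraries and 1 count in all the cultures, a ratio of 57300 (95% counting interval 10300 to 2260000). Cxcl9, a partner of Cxcl10, had 150.5, 159 and 272 CPM in the tumor libraries and 2 counts in the cultures, a ratio of 9640 (95% counting interval 2670 to 79600). Ifi208 had 16059 counts in the tumor libraries and 3 in the cultures, a ratio of 6630 (95% counting interval 2270 to 32200). Ifi213, another gene of this DNA-sensor family on chromosome 1, rose by 10.19. Members of the family resemble each other, so how reads were shared among them is uncertain, as it is for the guanylate-binding proteins.

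Antigen presentation genes moved with them. Of the MHC class II list, 11 of the 14 tested members rose and 1 fell past 2-fold, with a median of 4.72. H2-Ab1, a class II beta chain, had 3230.0, 3626 and 4313 CPM in the tumor libraries, against 11.4, 7.79, 23.1 and 10.5 CPM in the cultures (log2 fold change 8.14 ± 0.39 SE). Ciita, the transactivator of class II genes, had 137, 147 and 165 CPM in the tumor libraries and 1.74, 0.716, 2.26 and 1.21 CPM in the cultures (6.65 ± 0.22 SE). The cultures held little of either, and the groups did not overlap.

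Cd74, the invariant chain, had 8885 ± 972 CPM in tumor and 126 ± 37 CPM in cultures (SD, n = 3 and 4), and Ctss, the cathepsin that trims it, had 6113 ± 209 CPM in tumor and 239 ± 57.5 CPM in cultures. The costimulatory genes Cd40 and Cd86 rose by 9.31 and 4.77, whereas Cd80 was not called (0.10, edgeR adjusted p = 0.446). H2-Oa, whose product restrains peptide loading, fell (-2.97). Of the class I list, 10 of the 14 tested members rose and 0 fell past 2-fold, with a median of 3.47. H2-D1 and H2-K1, class I heavy chains that resemble each other, had 11475 ± 1299.5 and 3599.5 ± 288 CPM in tumor, against 541 ± 81.4 and 278 ± 37.7 CPM in cultures, and B2m rose by 2.25. The chaperone gene Calr was called lower (-0.59) and did not pass the 2-fold test.

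**Figure D3:**
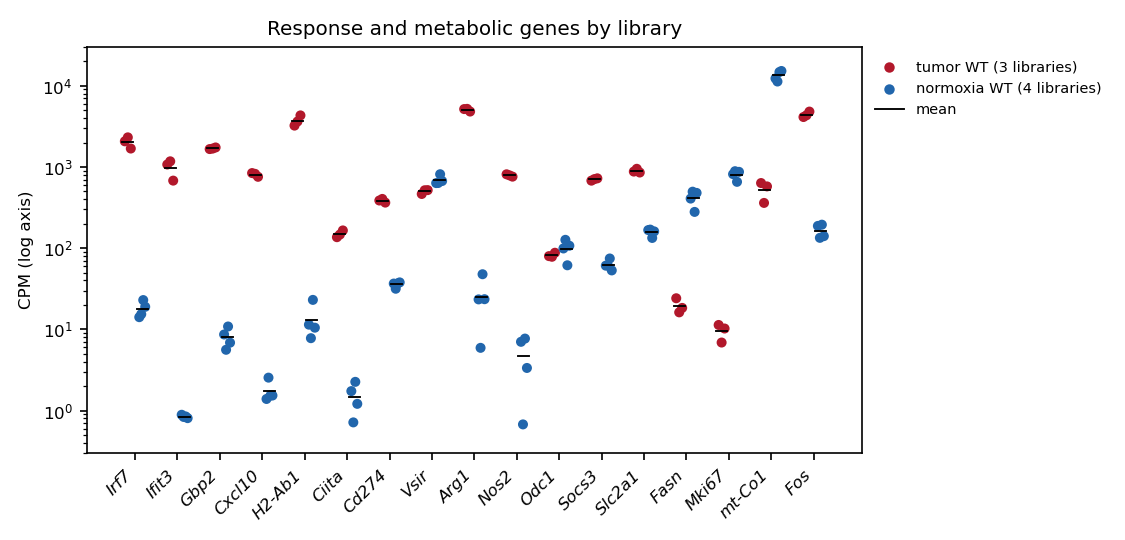
CPM of response and metabolic genes in each library on a log axis, with tumor WT (red, 3 libraries) left of normoxia WT (blue, 4 libraries) and black lines at the means. Interferon, MHC class II and arginine genes stand high in tumor, Fasn, Mki67 and mt-Co1 stand high in culture, and Odc1 overlaps.

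Genes of arginine use, the pathway by which suppressor cells starve T cells, differed widely in level. Arg1, arginase 1 (chr10:24915221-24927484, GRCm38), had 5161, 5193 and 4813 CPM in the tumor libraries, against 23.4, 5.93, 47.8 and 23.5 CPM in the cultures (log2 fold change 7.65 ± 0.71 SE, edgeR adjusted p = 6.41e-05). Nos2, the inducible nitric oxide synthase, had 812, 788 and 760.1 CPM in the tumor libraries, against 7.03, 0.676, 7.71 and 3.35 CPM in the cultures (7.39 ± 0.62 SE, edgeR adjusted p = 3.64e-05). The tumor libraries were close together for both genes, and the cultures were spread more widely. Arg2, the mitochondrial arginase, was not called (-0.03).

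Of the arginine and nitric oxide list, 5 of the 10 tested members rose and 1 fell past 2-fold. Gatm, which makes the creatine precursor from arginine, rose (623 CPM in tumor and 43.9 CPM in cultures, 3.83). Of the arginine carriers, Slc7a1 fell (10.3 CPM in tumor and 103 CPM in cultures, -3.31) and Slc7a2 rose (93.7 CPM in tumor and 28.8 CPM in cultures, 1.70). Ass1, which rebuilds arginine from citrulline, was called lower in WT (-0.67) and stood at 0.34 in the KO tumor over KO culture contrast.

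Polyamines are made from ornithine, the product of arginase. Odc1, ornithine decarboxylase, the first enzyme of that route, had 79.8, 78.4 and 87.8 CPM in the tumor libraries and 99.2, 127, 61.6 and 107 CPM in the cultures and was not called (log2 fold change -0.27 ± 0.20 SE, edgeR adjusted p = 0.228). Of the later synthesis genes, Amd1 fell past 2-fold (-2.24). Srm, spermidine synthase, fell by 1.55, a 2-fold call lost without tumor library 1 or 3 or culture library 2 or 4 (edgeR adjusted p = 0.0922, 0.112, 0.0619 and 0.0738). It was also lost with DESeq2 (adjusted p = 0.308) and, in edgeR, with all 4 groups in 1 fit, with the length trend removed and without a filter on low counts (adjusted p = 0.0751, 0.0562 and 0.0807). The breakdown genes Sat1 and Smox rose, by 2.12 and 4.46, with Smox at 426 ± 21.5 CPM in tumor and 19.3 ± 5.25 CPM in cultures (SD). In the whole polyamine list, 4 of the 19 tested members rose and 4 fell past 2-fold, near the 18.5% and 22.8% of all genes. Eif5a, the factor modified with the polyamine-derived residue hypusine, was called lower (-0.57), and Oaz1, the antizyme that targets ornithine decarboxylase for breakdown, was called higher (1.07).

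Of the checkpoint and suppressive genes, 11 of the 19 tested members rose and 2 fell past 2-fold. Cd274, the PD-1 ligand, had 386, 404 and 364 CPM in the tumor libraries, against 36.7, 31.7, 36.9 and 37.9 CPM in the cultures (log2 fold change 3.43 ± 0.09 SE). Vsir itself had 465, 517 and 519 CPM in the tumor libraries and 633, 635, 814 and 671 CPM in the cultures, called lower but not past 2-fold (-0.46 ± 0.10 SE, edgeR adjusted p = 8.61e-04). The levels of Vsir were thus of the same order in both sources. Ptgs2, the prostaglandin synthase COX-2, rose by 8.97 ± 0.13 SE, Havcr2, the checkpoint receptor TIM-3, by 6.67, and the galectin genes Lgals9 and Lgals3 by 2.38 and 1.74. Tgfb1 and Siglece, an inhibitory lectin, fell, with log2 fold changes of -1.51 and -3.75.

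IL-6, which was added to the cultures, signals through JAK kinases and STAT3. Of this list, 11 of the 22 tested members rose and 2 fell past 2-fold, with a median of 1.12. Stat3 had 695, 728 and 620.0 CPM in the tumor libraries, against 185, 164, 209 and 175 CPM in the cultures (log2 fold change 1.89 ± 0.10 SE). Socs3, its feedback inhibitor and direct target, had 678, 708 and 724 CPM in the tumor libraries and 60.9, 61.3, 74.6 and 53.2 CPM in the cultures (3.49 ± 0.11 SE). Mcl1, a survival gene, and Junb rose by 2.04 and 3.51, while the target Pim1 fell by 1.64. Junb also belongs to the immediate early genes described below. The receptor genes Il6ra and Il6st were called higher by 0.39 and 0.75 and did not pass the 2-fold test. Under scaling by library size alone Il6ra lost its call (0.17, edgeR adjusted p = 0.143).

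Low-oxygen target genes were higher in the tumor libraries than in the normoxia cultures. Of this list, 16 of the 25 tested members rose and 0 fell past 2-fold, with a median of 1.62. Slc2a1, the glucose transporter GLUT1, had 878, 949 and 854 CPM in the tumor libraries, against 167, 169, 134 and 161 CPM in the cultures (log2 fold change 2.50 ± 0.10 SE, edgeR adjusted p = 6.00e-12). Hif1a, the oxygen-regulated factor, rose by 1.31 ± 0.08 SE and did not pass the 2-fold test (1.09) under scaling by library size alone. Vegfa and Pfkfb3 rose by 1.66 and 2.89, and Hilpda, a lipid droplet protein, by 4.83. Members that did not pass included Egln3, Egln1, Mxi1 and Bhlhe40, none of them called (0.11, 0.29, 0.18 and -0.13), and Bnip3l was called lower (-0.28). The core letters ACGTG or GCGTG were in a promoter window of 22 of 22 matched members. Counted in the same way they were in 66.63% of tested genes, and by single windows in 43.77% of all promoters.

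Some glycolysis genes are low-oxygen targets too. Of the glycolysis list, 11 of the 22 tested members rose and 1 fell past 2-fold, with sums over 31982 to 36638 CPM in the tumor libraries and 16126 to 17885 CPM in the cultures. Eno1, Pkm and Ldha, enolase, pyruvate kinase and lactate dehydrogenase, rose by 1.52 ± 0.10, 1.58 ± 0.10 and 1.69 ± 0.09 SE. Gapdh was called higher by only 0.32, a call lost under scaling by library size alone (0.10). Slc2a3, the glucose transporter GLUT3, fell (13.4 CPM in tumor and 111 CPM in cultures, -3.05). Eno1, Gapdh and Ldha have many processed pseudogenes that can share their reads. In the citric acid cycle, by contrast, 2 of 24 tested members rose and 2 fell past 2-fold, against 18.5% and 22.8% of all genes. The median was -0.02, which is that of all genes. Sdhb, a subunit of succinate dehydrogenase, rose by 1.81, and Pcx, pyruvate carboxylase, fell by 2.33.

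All 13 protein genes of the mitochondrial genome fell past 2-fold, with a median of -5.38. mt-Co1, a subunit of cytochrome oxidase, had 634, 361 and 576 CPM in the tumor libraries, against 12303, 11278, 14752 and 15197 CPM in the cultures (log2 fold change -4.68 ± 0.22 SE). The mitochondrial genome took 0.178% ± 0.0575 of the counts of tumor libraries and 4.39% ± 0.497 of those of cultures (SD, n = 3 and 4). An exact permutation test, two-sided, returned p = 0.0571, the smallest that 3 libraries against 4 allow. Nuclear genes of the same respiratory chain did not follow, with a median of 0.35. Of these, 6 of the 35 tested members rose and 0 fell past 2-fold, against 18.5% and 22.8% of all genes. Nuclear pseudogenes of mitochondrial sequence share reads with it, and Gm10925 had 278 CPM in tumor and 6963 CPM in cultures. The part of RNA quality in the mitochondrial share was not tested.

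**Figure D4:**
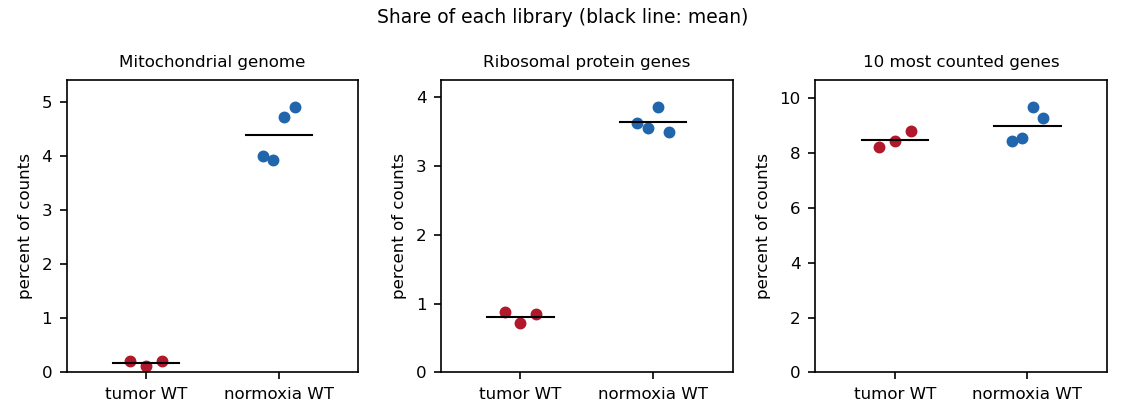
Percent of each library's counts on the mitochondrial genome, on ribosomal protein genes and on the 10 most counted genes, with tumor WT (red, 3 libraries) left of normoxia WT (blue, 4 libraries), 1 point per library and a black line at the mean. The mitochondrial and ribosomal shares were lower in every tumor library than in any culture, while the 10 most counted genes took a similar share (8.48% and 8.98% on average).

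Sterol and fatty acid synthesis genes fell as a group. Past 2-fold, 21 of the 23 tested members fell and 0 rose, against 22.8% of all genes downward, and all 23 were called lower, with a median of -2.57. Fasn, fatty acid synthase, had 24.2, 16.2 and 18.4 CPM in the tumor libraries, against 408, 496, 279.6 and 479 CPM in the cultures (log2 fold change -4.41 ± 0.24 SE). Scd1, the stearoyl desaturase, fell, with a log2 fold change of -5.77 ± 0.13 SE. Srebf2, the regulator of sterol genes, fell by 1.89. The letters TCACNCCAC of the sterol regulatory element were in a promoter window of 1 of 15 matched members, Hmgcs1. Counted in the same way they were in 1.42% of tested genes, and by single windows in 1.24% of all promoters.

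Genes of lipid uptake and efflux moved in both directions: 5 of the 18 tested members rose and 3 fell past 2-fold, against 18.5% and 22.8% of all genes, and the median was 0.07. Abca1, which exports cholesterol, rose (227 ± 25.5 CPM in tumor and 5.02 ± 1.55 CPM in cultures, SD, log2 fold change 5.50), as did the scavenger receptor Cd36 (4.56). Plin2, a lipid droplet coat protein, and Npc2 rose by 1.72 and 1.84. Lpl, lipoprotein lipase, and Pparg, which GM-CSF induces in alveolar macrophages, fell, with log2 fold changes of -5.64 ± 0.14 and -3.34 ± 0.13 SE. Among cathepsin and lysosome genes, 12 of the 21 tested members rose and 1 fell past 2-fold, with Ctsc, Ctsb and Grn rising by 2.84, 2.06 and 1.91 and Atp6v0d2 falling by -2.60.

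Secreted signals were mostly higher in the tumor libraries. Il1b, interleukin 1 beta, had 827, 798 and 1105 CPM in the tumor libraries, against 24.4, 21.5, 31.6 and 22.6 CPM in the cultures (log2 fold change 5.18 ± 0.16 SE). Of the cytokine list, 7 of the 14 tested members rose and 2 fell past 2-fold, against 18.5% and 22.8% of all genes. Osm, oncostatin M, and Il18 rose by 3.83 and 5.0, and Tnf fell by 1.44.

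Of the CC chemokines and receptors, 11 of 16 tested members rose and 3 fell past 2-fold, against 18.5% and 22.8% of all genes. Ccl7 and Ccl12, ligands of CCR2 encoded near each other on chromosome 11 (chr11:82045712-82047525 and chr11:82101845-82103400), had 536 ± 38.3 and 217 ± 21.9 CPM in tumor, against 0.08 ± 0.0337 and 0.118 ± 0.0965 CPM in cultures (log2 fold changes 12.63 and 10.77). Ccl2, of the same group, rose by 7.76, and Ccl6 fell by 1.85. Of the CXC genes, 10 of the 14 tested members rose and 1 fell past 2-fold, the fall being that of Cxcr2, the receptor by which neutrophils follow these chemokines (1.09 CPM in tumor and 116 CPM in cultures, -6.71). Cxcl16 rose by 6.62.

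Of the complement genes, 10 of the 18 tested members rose and 2 fell past 2-fold, against 18.5% and 22.8% of all genes. C4b had 209, 271 and 251 CPM in the tumor libraries and 3 counts in the cultures, a ratio of 8190 (95% counting interval 2800 to 39700), and C3ar1, the receptor of a C3 fragment, rose by 5.30. C3 itself and Cd55 fell (-1.39 and -4.65). Of the secreted matrix and growth factor genes, 8 of the 15 tested members rose and 1 fell past 2-fold. Tgfbi, a matrix protein of monocytes, had 5867 ± 505 CPM in tumor and 353 ± 104 CPM in cultures (SD, 4.05), Ecm1 rose by 3.85, and Thbs1, thrombospondin, was called lower without passing the 2-fold test (-1.12). Among matrix proteases and their inhibitors, 7 of the 18 tested members rose and 5 fell past 2-fold, against 18.5% and 22.8% of all genes. Adam8 and Mmp14 rose by 2.52 and 3.89, and the granule proteases Mmp8 and Mmp9 fell, with log2 fold changes of -4.42 and -6.01. The fibroblast genes Col3a1 and Dcn given above were listed in the tumor table only, and their part in the matrix results was not tested.

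Genes of cell division were low in the tumor libraries. Past 2-fold, 27 of the 28 tested members of the list fell and 0 rose, with a median of -3.59, and the last member, Cdt1, was called lower (-1.01). Mki67, the marker antigen of cycling cells, had 11.3, 6.89 and 10.2 CPM in the tumor libraries, against 816, 887, 656 and 870.5 CPM in the cultures (log2 fold change -6.41 ± 0.20 SE). Top2a and the ribonucleotide reductase genes Rrm1 and Rrm2 fell, with log2 fold changes of -5.23, -3.06 and -4.14. The MCM helicase genes, which license replication origins, fell, with log2 fold changes of -1.85 for Mcm6 to -3.38 for Mcm7, and Ccna2, a cyclin, stood at -5.76.

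E2F factors bind near the start of many such genes. Of 24 matched members, 7 (29.17%) held TTTCCCGC, TTTGGCGC, TTTCGCGC or TTTGCCGC on either strand of a promoter window. Counted in the same way, 4.66% of tested genes did, and by single windows 2.26% of all promoters. The windows of 2 MCM genes with overlapping matches are shown from RefSeq on GRCm38.p6, with capitals on the matches and each read 5′ to 3′ on the strand of its gene. Mcm5 lies at chr8:75109259-75109558, plus strand and Mcm6 at chr1:128359656-128359955, minus strand.
Mcm5: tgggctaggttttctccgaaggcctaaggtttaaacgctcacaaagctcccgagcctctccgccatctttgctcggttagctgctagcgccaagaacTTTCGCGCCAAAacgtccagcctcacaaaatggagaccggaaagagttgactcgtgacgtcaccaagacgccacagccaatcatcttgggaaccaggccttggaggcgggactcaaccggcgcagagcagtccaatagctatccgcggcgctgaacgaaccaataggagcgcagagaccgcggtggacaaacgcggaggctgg
Mcm6: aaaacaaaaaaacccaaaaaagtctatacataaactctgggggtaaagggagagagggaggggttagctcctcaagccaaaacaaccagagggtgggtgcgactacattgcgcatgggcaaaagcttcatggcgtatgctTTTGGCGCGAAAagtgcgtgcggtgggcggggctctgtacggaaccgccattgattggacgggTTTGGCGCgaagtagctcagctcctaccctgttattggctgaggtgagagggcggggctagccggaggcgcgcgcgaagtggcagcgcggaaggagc
Mcm5 had 21.9, 23.5 and 22 CPM in the tumor libraries and 214, 233, 175 and 209 CPM in the cultures, and Mcm6 had 47.5, 63.2 and 55.3 and 213, 210.2, 169.9 and 205 CPM (log2 fold changes -3.21 ± 0.11 and -1.85 ± 0.11 SE). The groups did not overlap for either.

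Ribosomal protein genes fell too: 0 of the 24 tested members rose and 20 fell past 2-fold, all 24 were called lower, and the median was -1.70. Rplp0, Rpl4 and Rps6 fell, with log2 fold changes of -2.11, -1.68 and -2.21. These genes took 0.813% ± 0.0873 of tumor counts and 3.64% ± 0.163 of culture counts (SD, n = 3 and 4, exact two-sided permutation p = 0.0571, the smallest possible here). Ribosomal protein genes have many processed pseudogenes that can take their reads.

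Immediate early genes, which cells switch on within minutes of a stimulus and also while tissue is taken apart, were high in the tumor libraries. Of this list, 15 of the 18 tested members rose and 1 fell past 2-fold, with sums over 15044 to 16521 CPM in the tumor libraries and 1341 to 1588 CPM in the cultures. Fos had 4119.5, 4327 and 4805 CPM in the tumor libraries, against 188, 134, 195 and 141 CPM in the cultures (log2 fold change 4.75 ± 0.15 SE). Jun, Dusp1 and Atf3 rose by 4.93, 5.57 and 5.72, whereas Egr3 fell (0.25 CPM in tumor and 14.9 CPM in cultures). Of the heat shock genes, 2 of the 11 tested members rose and 2 fell past 2-fold, against 18.5% and 22.8% of all genes. Hspa1a and Hspa1b, near-identical copies of inducible HSP70 whose reads are shared, had 1591 ± 474 and 1649.9 ± 529.8 CPM in tumor, against 3.74 ± 1.04 and 4.53 ± 1.23 CPM in cultures. Hsp90ab1, a constitutive HSP90, fell by 1.43. How the cells were taken from culture or tumor was not compared, so its part in these values was not tested.

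The same contrast was available in KO libraries, 3 of tumor and 4 of culture, none of which entered the WT fit. There 2850 of 14777 tested genes (19.3%) rose and 3352 (22.7%) fell past 2-fold. Of the genes past 2-fold in WT, 2361 of those that rose (87.12% of the WT calls and 82.84% of the KO calls) and 2917 of those that fell (87.1% and 87.02%) passed in the same direction in KO. Opposite signs in KO were seen for 11 WT rises and 4 WT falls. List medians of the log2 fold change were 6.31 in KO and 6.76 in WT for interferon-stimulated genes, -7.80 in KO and -6.86 in WT for early granule genes and -7.37 in KO and -4.42 in WT for late granule genes. They were 2.46 in KO and 2.47 in WT for macrophage genes, and -3.63 in KO and -3.59 in WT for division genes. The medians of the late granule list lay further apart than those of the lists that follow. The median was -0.13 in KO and 2.08 in WT for endothelial genes, and -1.58 in KO and 0.56 in WT for B and plasma cell genes. It was 2.90 in KO and 4.57 in WT for T and NK cell genes, and 0.24 in KO and 0.84 in WT for dendritic cell genes. Chil1, a chitinase-like granule protein with a log2 fold change of 0.13 in WT, stood at -8.34 in the KO contrast. The difference between the genotypes in this contrast was not tested here.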

How the data were processed

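The authors deposited raw counts per Ensembl gene for the tumor and normoxia experiments, with Subread and featureCounts as tools and GRCm38.p6 as build per the submitters' processing notes; versions, annotation and strand setting are not given in the sources used here, so overlapping antisense genes cannot be told apart. Per the labels, the library kit was Takara SMART-Seq. The authors' normalized tables, made with DESeq2 per the same notes, were not used. WT columns were matched by name, and normoxia KO columns by elimination. The WT contrast took 3 and 4 libraries.

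Counts of the 20770 shared genes were fitted in R 4.3.3 with edgeR 4.0.16 (filterByExpr, TMM, robust quasi-likelihood F test, and the test against 2-fold), with Benjamini-Hochberg adjustment over 14666 genes and threshold 0.05. CPM use the TMM-scaled library size. Symbols came from GENCODE M21 (20739 genes) and promoters from RefSeq. On simulated counts for 14431 genes, 100 genes were changed 2-fold and 100 were changed 4-fold. Of these, 88% of 2-fold and 100% of 4-fold changes were called at 5.53% false calls. Far more genes were called in the real contrast (80.4%), so these rates need not hold there. Alternatives are given in the closing section, DESeq2 1.42.0 among them. Every pair of libraries in a group differed by more than counting error. Replicate numbers did not pair the libraries (correlations of deviations 0.0156, 0.0411 and 0.0574). Intervals cover counting error only.

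The members and gene lists were chosen with earlier results of these data known. Named were the 12 largest rises and 12 largest falls past 2-fold (mean log2 CPM at least 6, no overlap, predicted and clone-named genes passed over), 14 fixed genes, the 4 called members of each list with the highest CPM, and exceptions. Other members were named after their values were seen. Some genes are not reported here.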

Additional observations from a re-analysis of the deposited data

Results flagged for a closer look

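In 22 of the 255 genes chosen by the naming rule or named in the text, 1 of the 4 culture libraries lay apart from the other 3, with a gap to its neighbour that took more of the group's range than Dixon's 95% limit for 4 values allows. Chance flags about 1 in 20 groups, and the 3 tumor libraries are too few for this rule. In culture library 1 the value was the highest for Hba-a1 (1), Hba-a2 (1) and Soat1 (0.891). In culture library 2 the value was the highest for Cxcl10 (0.876) and Ifit2 (0.835). In culture library 3 the value was the highest for Iigp1 (1), Prtn3 (0.894), Prss34 (0.908), Kdr (0.842), H2-K1 (0.883), Tapbp (0.841), Flt3 (1), H2-Oa (0.941), Irf9 (0.864) and Smox (0.871). In culture library 4 the value was the highest for Trac (0.979). In culture library 1 the value was the lowest for Cebpb (0.923). In culture library 2 the value was the lowest for Tlr13 (0.941) and Egln3 (0.897). In culture library 3 the value was the lowest for Lpl (0.831) and Amd1 (0.845). In culture library 4 the value was the lowest for Ifi208 (0.957). For Iigp1, Ifi208, Trac, Hba-a1, Hba-a2 and Flt3 these gaps are between libraries under 1 CPM, of a few counts at most.

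Genes listed in 1 table only were outside the fit, and some were abundant. In the tumor table only, Col3a1 averaged 331 CPM, Dcn averaged 49.1 CPM and Gzmb averaged 25.3 CPM of the unscaled library size. In the normoxia table only, Camp averaged 514 CPM, Itgb2l averaged 226 CPM and Ceacam10 averaged 142 CPM. Camp, cathelicidin, is a late granule gene with 48509 counts over the culture libraries.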

How the results depend on the processing

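The log2 fold change of all genes had a median of -0.02 with the scaling used and -0.24 under library size alone, which gave 4856 genes called higher and 6896 lower, and 2299 and 3854 past 2-fold. DESeq2 gave 5848 higher and 5845 lower at an adjusted p under 0.05, and 2398 and 2864 past 2-fold. Leaving out each replicate gave 5564 to 5960 higher, 5726 to 5908 lower, 2629 to 2831 past 2-fold higher and 3215 to 3369 past 2-fold lower. With the replicate block, which pairs libraries that share only a number, these counts were 5607, 5753, 2626 and 3257. Without a filter on low counts they were 6510, 6695, 3234 and 3728, and with the genes of both tables pooled, listed or not in the other, 5968, 6106, 2875 and 3477. With a trend on exonic length removed, an alternative chosen after seeing the data, they were 6288, 5566, 2951 and 3066. All 4 counts stayed within 1.5 times their reported values under each of the 20 alternatives run. Removing the length trend did not level the shift of short protein-coding genes. For protein-coding genes under 1000 exonic bases the median log2 fold change was 0.42 as reported and 0.83 with that trend removed. For those of 6000 bases or more it was -0.16 and 0.05.

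Of 5081 values of 255 genes chosen by the naming rule or named in the text under these alternatives, 4960 kept their direction and their side of the threshold, 81 lost a call, 15 gained one and 25 changed sign, most of them of genes that were not called. In the KO libraries, the log2 fold change had the other sign for Odc1 (0.27), Alox15 (-0.023), Ighm (-0.0066), Ass1 (0.34), Ero1l (-0.011), Itgb2 (-0.022), Chil1 (-8.34), Csf3r (-0.15), Il6ra (-0.12) and Mxi1 (-0.64). Under library size alone, the log2 fold change had the other sign for Atp5b (-0.00070), Cd80 (-0.12), Chil1 (-0.081), Egln3 (-0.11) and Mxi1 (-0.036). With the length trend removed, the log2 fold change had the other sign for Arg2 (0.056) and Itgam (0.015). With the replicate block, the log2 fold change had the other sign for Arg2 (0.017) and Itgam (0.041). With DESeq2, the log2 fold change had the other sign for Itgam (0.0067). With DESeq2 size factors in edgeR, the log2 fold change had the other sign for Itgam (0.0067). With each replicate left out in turn, Arg2 ran from -0.11 to 0.10, Egln3 ran from -0.0028 to 0.16 and Itgam ran from -0.058 to 0.026. The cause was not tested.

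Source, day, medium and table differ together, 3 libraries against 4 cannot take an exact permutation test below 0.0571, and the smallest values rest on single counts.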

Other observations

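Receptors of innate sensing were mostly higher in the tumor libraries. Of the Toll-like and lectin receptors, 13 of the 21 tested members rose and 0 fell past 2-fold, with a median of 1.29. Cd14, the coreceptor for endotoxin, had 1529, 1602 and 1383 CPM in the tumor libraries, against 119.7, 88.7, 166 and 116 CPM in the cultures (log2 fold change 3.62 ± 0.18 SE). Tlr13, a sensor of bacterial ribosomal RNA, and Tlr3 rose by 2.13 and 5.53. Integrin and adhesion genes moved both ways: 7 of 19 tested members rose and 2 fell past 2-fold, against 18.5% and 22.8% of all genes. Itgb7 rose by 4.62 ± 0.23 SE, and Itgb3 fell by 3.75.

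The genes most counted in the tumor libraries were Actb (19547 ± 1457 CPM in tumor and 7023 ± 604 CPM in cultures, SD, n = 3 and 4), Lyz2 and H2-D1. Lars2, which encodes the mitochondrial leucyl-tRNA synthetase and was singled out after its values were seen, had 6074, 5377 and 5638 CPM in the tumor libraries, against 24.7, 24.6, 26.4 and 26.8 CPM in the cultures (log2 fold change 7.80 ± 0.12 SE). Only counts per gene were used, so the part of Lars2 that its reads cover, and whether they come from its mRNA, was not tested. Acod1, the itaconate enzyme, also chosen after its values were seen, had 525 ± 40.8 CPM in tumor and 43.1 ± 3.62 CPM in cultures (3.61). Xist had 41.9 ± 13.4 CPM in tumor and 301 ± 44 CPM in cultures, and 4 Y-linked genes searched were in neither table. Protein-coding genes with under 1000 exonic bases had a median log2 fold change of 0.42, and those of 6000 or more -0.16.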
